A study of Mus musculus and Homo sapiens
Mus musculus with 12 samples.

Results

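Cerebellar granule neurons were examined in single-nucleus total RNA profiles of mouse brain made by snHH-seq, a droplet method that primes reverse transcription at random along RNA and so also captures transcripts without a poly(A) tail. Nuclei were chosen by their own counts: a nucleus was taken as granule-gated when Fat2, Cbln3 and Gabra6 together reached at least 4 unique fragment identifiers (UFIs, the deduplicated counts of this assay) per 10000 UFIs of that nucleus. In the 4 brain libraries made without a preindex, the extra cell barcode that can be placed on the reverse transcription primer, 274 of 3800 nuclei met the rule, which is 7.21% (exact Clopper-Pearson 95% interval 6.41 to 8.08). These libraries were part of 7 brain libraries with 11198 nuclei in all. The mice were wild-type C57BL/6J males of 6 to 8 weeks, and the tissue was either frozen brain (2 libraries without preindex) or fresh brain (2 libraries without preindex). In addition, 2 frozen and 1 fresh brain library were made with the preindex. The labels do not say whether libraries of one kind came from separate animals, so every p-value below measures the spread between libraries, which may be technical.

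The libraries differed in depth and not every label pointed the same way. The frozen libraries without preindex held 700 and 800 nuclei with 8605214 and 14730649 UFIs, and the fresh ones 1000 and 1300 nuclei with 24750188 and 42439731 UFIs. Median UFIs per nucleus were 10187 and 15385 in the frozen libraries and 21127 and 27543 in the fresh ones, so storage and depth cannot be told apart. For 4 of the 7 brain libraries the title and the treatment label name opposite primers. The titles were followed here, and the barcodes were 30 bases long in each library titled as not indexed and 40 bases in each titled as indexed. The 4 libraries without preindex shared 30 barcodes over their 6 pairs, and 1 granule-gated nucleus had a barcode that also occurred in another of them.

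Granule neurons are small glutamatergic neurons that fill the inner layer of the cerebellar cortex and outnumber all other neurons of the mammalian brain. They arise from progenitors of the rhombic lip, receive mossy fibre input on a few short dendrites, and send parallel fibres that contact Purkinje cell dendrites. A tonic inhibitory current through GABA-A receptors that hold the Gabra6 and Gabrd subunits, and cerebellins that link parallel fibre neurexins to Purkinje cell dendrites, are among their best known features. Fat2 is an atypical cadherin placed on parallel fibres, Cbln3 is a cerebellin that assembles with Cbln1, and Gabra6 is a GABA-A receptor alpha subunit made mainly by these cells.

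The start regions of the 3 rule genes are shown because these genes define the nuclei described here. Each window runs from 250 bases before to 50 bases after a RefSeq transcript start on GRCm38.p6, which is the outermost start of the gene for Cbln3 and Gabra6 and a start inside the gene for Fat2. The windows are printed along the gene's own strand, which is the minus strand for each of them. Capitals mark CAGNTG, the core bound by basic helix-loop-helix factors such as Atoh1 and Neurod1, or TTGGC, a core bound by nuclear factor I proteins, with either strand searched and no overlap between the motifs in these windows. The windows are chr11:55312208-55312507 for Fat2, chr14:55884207-55884506 for Cbln3 and chr11:42321023-42321322 for Gabra6.
Fat2: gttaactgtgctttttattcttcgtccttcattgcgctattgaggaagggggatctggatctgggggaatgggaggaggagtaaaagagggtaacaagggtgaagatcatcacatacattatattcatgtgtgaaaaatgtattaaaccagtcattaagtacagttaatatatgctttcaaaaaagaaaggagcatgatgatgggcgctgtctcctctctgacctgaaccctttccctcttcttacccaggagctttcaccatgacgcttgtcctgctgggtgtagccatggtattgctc
Cbln3: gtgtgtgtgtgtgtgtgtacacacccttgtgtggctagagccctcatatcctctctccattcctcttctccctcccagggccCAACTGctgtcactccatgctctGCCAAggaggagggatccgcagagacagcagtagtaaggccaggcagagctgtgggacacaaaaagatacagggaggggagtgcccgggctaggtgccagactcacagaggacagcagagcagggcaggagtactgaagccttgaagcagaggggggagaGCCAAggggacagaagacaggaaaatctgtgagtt
Gabra6: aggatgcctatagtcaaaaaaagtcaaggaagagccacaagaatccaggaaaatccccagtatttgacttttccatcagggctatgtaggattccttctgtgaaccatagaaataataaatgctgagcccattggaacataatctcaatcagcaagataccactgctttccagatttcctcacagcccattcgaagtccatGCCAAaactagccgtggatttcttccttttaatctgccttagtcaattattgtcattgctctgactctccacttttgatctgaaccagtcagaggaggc
The Cbln3 window held 1 CAGNTG match, 168 bases before the start, and 2 TTGGC matches, 145 bases before and 15 after it. The Gabra6 window held 1 TTGGC match, 49 bases before the start. The Fat2 window held neither motif, and it lies inside the annotated span of the gene (chr11:55250609-55337505), whose outermost start is upstream of it. Among all 32851 promoter windows of 300.0 bases, 51.4% held CAGNTG and 46.7% held TTGGC, so these matches are a description of the letters only.

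The values that chose the nuclei are given as a description, with no test. Granule-gated nuclei carried a median of 8.64 rule UFIs per 10000, and the highest carried 37.9. The lowest member stood at 4.01 and the highest nucleus left out at 3.97, with 45 members between 4 and 5 and 44 other nuclei between 3 and 4. The gate therefore fell in a continuous run of values and not in a gap. Of the nuclei outside the gate, 2604 (73.9%) had no UFI of any rule gene. Members rested on a median of 15 rule UFIs each, 11 of them on fewer than 5, and 175 of the 274 had UFIs of all 3 genes. Fat2 was found in all members and 17.4% of other nuclei, Cbln3 in 90.5% and 10.9%, and Gabra6 in 66.4% and 4.54%. Outside the gate the 3 genes together made up 37.6 and 38.1 CPM (UFIs of a gene or list per 1000000 UFIs of the summed nuclei) in the frozen libraries and 12.5 and 18.2 CPM in the fresh ones, and this level in nuclei below the gate was higher in each frozen library than in each fresh one.

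Zic1 and Cadps2, the label markers that the rule did not use, stood higher in granule-gated nuclei. Zic1, a zinc finger transcription factor of granule progenitors and neurons (chr9:91358058-91365768), had at least 1 UFI in 66.1% of members and 14.1% of other nuclei. Cadps2, a regulator of dense-core vesicle release (chr6:23262773-23841175), had at least 1 UFI in 98.5% and 69.6%. Members had fewer UFIs per nucleus than the rest, with medians of 14341.5 against 20112.5. With each nucleus thinned to 3000 UFIs, which left out 2 other nuclei and no member, Zic1 was seen in 28.8% of members and 3.63% of other nuclei and Cadps2 in 83.2% and 37.3%.

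How far the label held depended on how far above the gate a nucleus lay. Pooled over the 4 libraries, Zic1 stood at 9.95 CPM in the 2604 nuclei without a rule UFI, 49.8 CPM in the 74 nuclei at 4 to 6 rule UFIs per 10000, 67.1 CPM in the 84 at 6 to 10, 118 CPM in the 55 at 10 to 20 and 283 CPM in the 61 at 20 and over. Chn2, a Rac-directed chimaerin, followed the same order with 115, 799, 932, 1833 and 3695 CPM. Cbln1, the secreted cerebellin of parallel fibres, stood at 4.14, 43.8, 53.3, 115 and 247 CPM. Each of these levels is far above that of nuclei without a rule UFI, and none has levelled off at the top of the range. The share of nuclei with a Zic1 UFI was 52.7% at 4 to 6 and 90.2% at 20 and over, while nuclei just below the gate, at 2 to 4, already reached 50.5%.

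The Gad genes of inhibitory neurons ran the other way, and mainly at the top. Gad1, which makes GABA, stood at 95.2 CPM without a rule UFI, 86.9 CPM at 4 to 6, 53.3 CPM at 6 to 10, 69.5 CPM at 10 to 20 and 8.28 CPM at 20 and over. Meg3, a nuclear long noncoding RNA of neurons, stood at 3093, 2607, 2198, 1567 and 901 CPM over the same levels, whereas Malat1, an abundant nuclear noncoding RNA of most cells, was at 4879 CPM without a rule UFI and 4715 CPM at 20 and over. Gad1 at 4 to 6 thus lay close to its level in nuclei without a rule UFI, and at the top it did not. At least 3 UFIs of Gad1 and Gad2 together were seen in 25.7%, 25.0% and 23.6% of nuclei at 4 to 6, 6 to 10 and 10 to 20, against 32.7% without a rule UFI. None of the 61 nuclei at 20 and over had them, which allows a share of up to 4.92%. At least 1 UFI was seen in 11.5% of these 61 nuclei for Gad1 and 14.8% for Gad2, against 41.0% and 40.8% outside the gate. At least 3 UFIs of Rgs9, a regulator of G-protein signalling abundant in the striatum, were seen in 18.9%, 10.7% and 12.7% of nuclei over these 3 levels, against 20.7% without a rule UFI, and in 1 of 61 (1.64%) at 20 and over. The striatal list as a whole did not run this way. Its 6 genes summed to 1336, 1545, 1940 and 2142 CPM at 4 to 6 in frozen 1, frozen 2, fresh 1 and fresh 2, and to 1683, 2046, 2421 and 2200.3 CPM at 20 and over, higher in each library. Most of that sum was Pde10a, a phosphodiesterase abundant in the striatum, at 1644, 2029, 2411 and 2163 CPM at 20 and over.

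The lower levels of the gate thus held granule genes together with genes of other neurons. None of the 61 nuclei at 20 and over reached 3 UFIs of Gad1 and Gad2 together. Doublets were not removed, and their part in the lower levels was not tested. Markers of oligodendrocytes stayed in the set. Their list of 7 genes summed to 384 CPM without a rule UFI, 444 CPM at 4 to 6, 1418 CPM at 10 to 20 and 923 CPM at 20 and over. The summed Purkinje list stood at 1015 CPM without a rule UFI, 685 CPM at 4 to 6 and 213 CPM at 20 and over. In frozen 1, frozen 2, fresh 1 and fresh 2 it stood at 665, 663, 643 and 970 CPM at 4 to 6. At 20 and over it stood at 225, 254, 273 and 170 CPM, against 1737, 1447, 872 and 952 CPM in other nuclei. It lay below the other nuclei in each library at 20 and over, but not in fresh 2 at 4 to 6. In between it reached 1141 CPM in frozen 1 at 6 to 10 and 1124 CPM in fresh 2 at 10 to 20. The summed mitochondrial protein genes differed between frozen and fresh libraries and are given by library. In frozen 1, frozen 2, fresh 1 and fresh 2 they stood at 1793, 2494, 418 and 295 CPM at 4 to 6 and at 2975, 5200.4, 1108 and 1428 CPM at 20 and over, against 1798, 1653, 592 and 597 CPM in other nuclei. At 4 to 6 they lay above the other nuclei in frozen 2 alone, and at 20 and over they did so in each library. The oligodendrocyte sums and the Purkinje sums given first are pooled over libraries, which took unequal parts in these levels. There were 24 and 34 frozen and 12 and 4 fresh nuclei at 4 to 6. At 20 and over there were 11 and 16 frozen and 13 and 21 fresh nuclei.

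**Figure D1:**
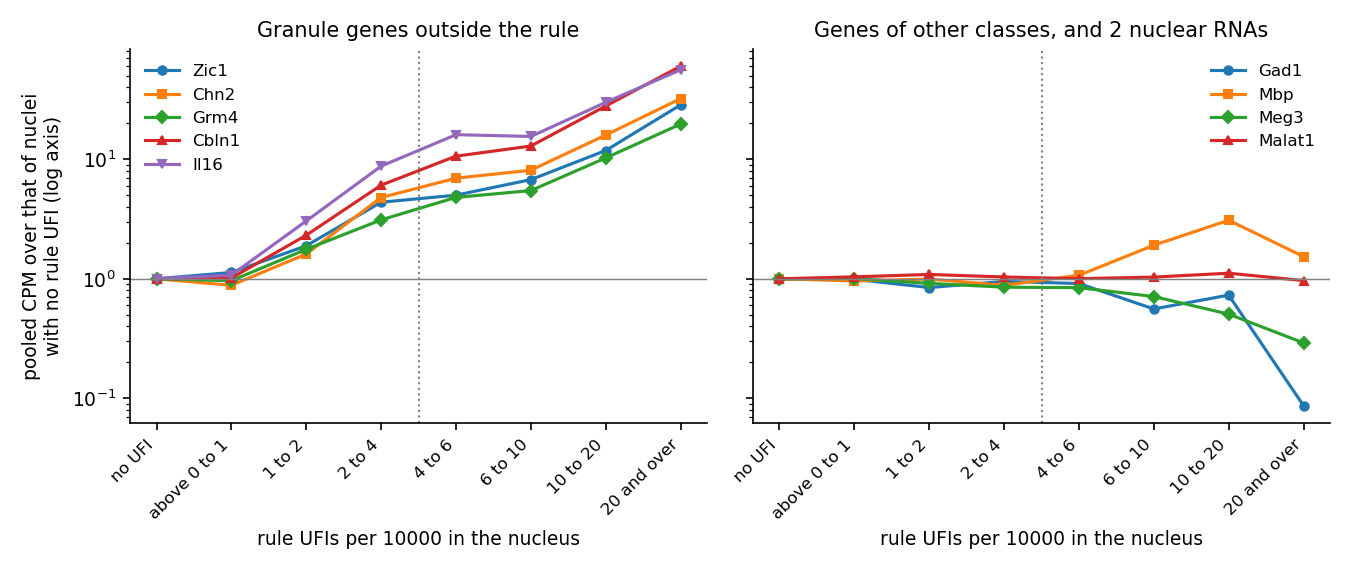
Pooled CPM of 5 granule genes outside the rule (left) and 4 other genes (right) by the rule UFIs per 10000 of the nucleus, divided by the CPM of nuclei without a rule UFI (log axis). The dotted line is the gate at 4. Zic1 runs from 9.95 to 283 CPM over the range, while Gad1 ends at 8.28 CPM from 95.2 CPM and Malat1 stays between 4715 and 5432 CPM.

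The share of granule-gated nuclei was higher in the frozen libraries. They made up 77 of 700 nuclei (11.0%, interval 8.78 to 13.6) and 103 of 800 (12.9%, 10.6 to 15.4) in the frozen libraries, and 40 of 1000 (4.00%, 2.87 to 5.41) and 54 of 1300 (4.15%, 3.14 to 5.39) in the fresh ones. The groups did not overlap, with means of 11.9% ± 1.33 (SD, n = 2) and 4.08% ± 0.109 (SD, n = 2), a difference of 7.86 percentage points. The two-sided exact permutation test over libraries gave p = 0.333, the smallest value that 2 against 2 allows. The gap was smaller at higher gates. With the gate at 8 the difference was 3.11 points, and with the gate at 20 the shares were 1.57%, 2.00%, 1.30% and 1.62%, a difference of 0.328 points (exact permutation p = 0.667). Of the members, 59.7% and 68.0% were under 10 in the frozen libraries and 55.0% and 37.0% in the fresh ones. Rule UFIs in nuclei below the gate were also higher in the frozen libraries, as given above. The Purkinje list outside the gate summed to 1737 and 1447 CPM in the frozen libraries and 872 and 952 CPM in the fresh ones. The cerebellar interneuron list did not split this way, at 852 and 958 CPM against 891 and 861 CPM. Neither list is specific to cerebellar cells. Itpr1, the most abundant gene of the Purkinje list, was seen in 93.2% of nuclei outside the gate. Gad1 and Gad2 of the interneuron list were seen in 41.0% and 40.8% of them. The part of the rule UFIs below the gate and of these lists in the share was not tested.

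Libraries with the preindex held almost no such nuclei. The rule found 0 of 2300 and 0 of 1998 nuclei in the frozen libraries, which by 3 counts of the total allows shares of up to 0.130% and 0.150% (exact 95% upper limits 0.160% and 0.184%), and 1 of 3100 (0.0323%) in the fresh one. That nucleus held 4 rule UFIs of 7076. Over the 3 libraries only 64 of 90213508 UFIs came from rule genes. Since the rule had been set on the libraries without preindex with these results in view, no test was made. Primer and brain sample cannot be told apart here, because the labels do not say whether both kinds of library came from the same tissue, or from the same brain regions. Intervals on shares cover counting error only.

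**Figure D2:**
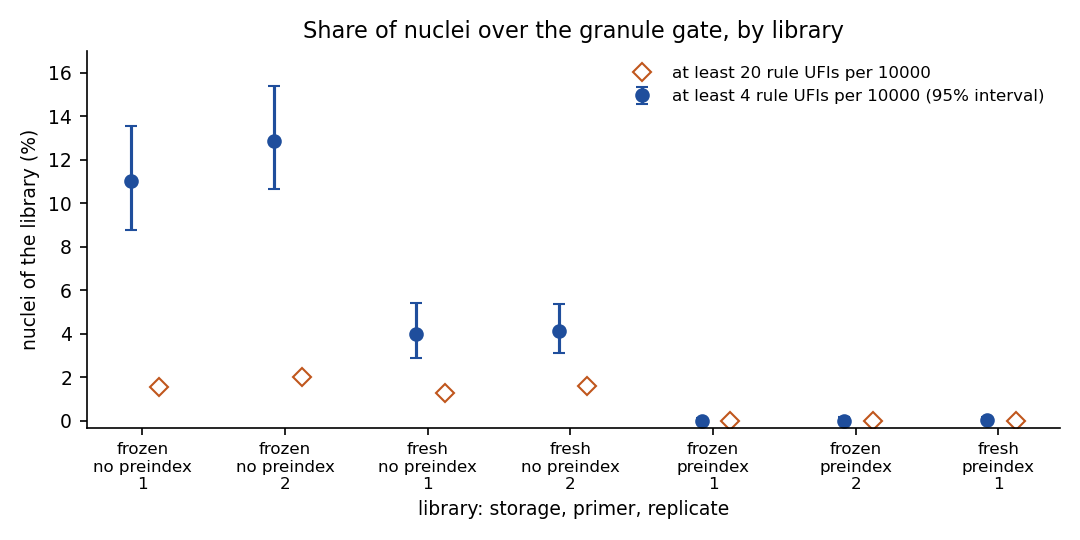
Share of nuclei over the granule gate in the 7 brain libraries, in percent of all nuclei of the library. Filled circles are the gate at 4 rule UFIs per 10000 with exact 95% intervals and open diamonds the gate at 20, and the frozen libraries without preindex stand at 11.0% and 12.9% against 4.00% and 4.15% in the fresh ones at the lower gate, but between 1.30% and 2.00% together with them at the higher one.

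Granule-gated nuclei were shallower than the other nuclei of their library. Median UFIs were 8815, 13294, 17331.5 and 20935 in members and 10385, 15912, 21186 and 27946 in the rest, in the order frozen 1, frozen 2, fresh 1 and fresh 2 that is used throughout. Members were lower in 4 of 4 libraries, with a mean difference of −3763 ± 2358 UFIs (SD, n = 4). The exact paired permutation test gave p = 0.125, the smallest possible over 4 libraries. Depth is the denominator of the rule, so a shallower nucleus passes with fewer rule UFIs, and nothing is read from this test. With the gate at 8 and at 20 the difference was −5110 and −5853 UFIs. After each nucleus was thinned to 3000 UFIs, members showed 1511, 1512, 1532 and 1556.5 genes and other nuclei 1447, 1482, 1503 and 1523.5. That is 39.0 ± 16.8 more genes (SD, n = 4) in 4 of 4 libraries (exact paired permutation p = 0.125), whereas before thinning the difference was −264 ± 169 genes, and it was 13.8 genes in 3 of 4 libraries with the gate at 20 (exact p = 0.375). Thinning left out 2 other nuclei of frozen library 1.

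Against all other nuclei of the same library, the comparison that the rule itself made, values are a description with no test. Counts were summed per library over members and over the rest. In such sums a gene can be higher because more nuclei carry it or because each carries more RNA, and these cannot be told apart. Of 13525 genes, 227 (1.68%) were at least 2-fold higher in members in 4 of 4 libraries and 21 (0.155%) at least 2-fold lower, with 1 CPM added to each value, and the median over all genes was −0.01 on the log2 scale. Nothing is read from these shares, since the gate picked the nuclei in this comparison. The split into higher and lower genes moved with the gate. With the gate at 8, 393 genes were higher and 398 lower, and with the gate at 20, 456 and 1619. With frozen library 2 left out, and so 3 of 3 libraries asked for, 391 genes passed in place of 248. Of the 26 genes in the granule identity list 25 were in the set, 16 were higher by this rule and none lower, with a median log2 difference of 1.80.

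Some transcription factors of the granule lineage were higher as well. Zic1 stood at 105, 87.9, 101 and 169 CPM in members and 8.69, 10.3, 12.3 and 11.8 CPM in other nuclei, a mean log2 difference of 3.28 ± 0.39 (SD, n = 4). Zic2, a close relative, stood at 37.3, 30.4, 42.2 and 70.5 CPM against 5.24, 3.88, 6.25 and 5.15 CPM. En2, the engrailed factor that patterns the midbrain and hindbrain, stood at 25.7, 15.2, 25.5 and 29.5 CPM against 1.79, 1.29, 0.671 and 1.17 CPM. The lowest member library exceeded the highest value of the other nuclei for each of the 3 genes, and the fresh 2 library was the highest for each. Pax6, a paired-box factor kept in mature granule neurons, and Chd7, a chromatin remodeller needed for granule development, were also higher, the latter at 398, 393, 448 and 598 CPM against 49.1, 59.7, 45.2 and 46.7 CPM. Of 18 hindbrain and granule transcription factors in the set 8 were at least 2-fold higher and none lower (Zic1, Zic2, Zic4, Zic5, Pax6, Etv1, En2 and Barhl1), with a median log2 difference of 1.48. Of 16 forebrain factors only Dlx1, of inhibitory lineages, was called, as lower, and the median was −0.71.

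Synaptic and secreted genes formed the next group. Cbln1 (chr8:87468853-87472592) stood at 91.3, 63.3, 102 and 157 CPM in members and 4.09, 4.87, 4.11 and 5.47 CPM in other nuclei, 4.15 ± 0.50 on the log2 scale. The long noncoding RNA Gm2694, which starts directly beyond it (chr8:87472812-87525554), stood at 297, 182, 295 and 347 CPM against 23.4, 24.9, 18.3 and 22.4 CPM. Both genes were thus over 10 times as high in members on average, with mean folds of 17.7 and 11.8. Reln, the secreted guide of Purkinje cell placement, stood at 690.2, 632, 617 and 828 CPM against 141, 200.1, 159 and 157 CPM. Unc13c, a presynaptic priming factor, stood at 664, 733, 661 and 832 CPM against 181, 233, 168 and 179.7 CPM. Of 29 genes of the parallel fibre synapse 4 were at least 2-fold higher in all libraries (Cbln1, Syt2, Unc13c and Calb2), none was lower, and the median log2 difference was 0.34. Over all genes 1.68% were higher and 0.155% lower. Nothing is therefore read from the absence of lower genes in this list or in the hindbrain and granule list. Slc17a7, the vesicular glutamate transporter of these neurons, was not called.

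Among receptors and channels single genes were called, beside 1.68% higher and 0.155% lower over all genes. Of 14 GABA-A subunits only Gabrd, the partner of Gabra6 in tonic inhibition, was called, at 39.8, 29.7, 40.0 and 49.6 CPM against 13.3, 14.3, 13.9 and 16.3 CPM. Of 17 ionotropic glutamate subunits only Grin2c, the NMDA receptor subunit of mature granule neurons (chr11:115249169-115267297), was called, at 90.0, 96.8, 123 and 165 CPM against 10.2, 11.1, 10.3 and 10.3 CPM. Of 7 metabotropic receptors only Grm4, a presynaptic receptor of parallel fibres (chr17:27422387-27513826), was called, at 697, 639.7, 808 and 1109 CPM against 90.2, 101, 92.6 and 97.4 CPM. Each of these was higher in every member library than in any library's other nuclei, while the family medians lay below 0, at −0.37, −0.40 and −0.68. Of 45 potassium channel genes 6 were higher (Kcnc1, Kcnd2, Kcnj12, Kcnk3, Kcnk10 and Kcnk12) and Kcnip1 was lower. Kcnd2, an A-type potassium channel, stood at 6686, 5839, 6749 and 7856 CPM against 2359, 2398, 2186 and 2129 CPM. None of 26 sodium and calcium channel genes was called. The lists of Purkinje cells and cerebellar interneurons had no gene called among 10 each. At the shares called over all genes nothing is read from these counts of 0. The medians of the Purkinje and interneuron lists were −0.88 and −0.65, whereas St18 was called as higher in the oligodendrocyte list of 7, whose median was 1.10. Astrocyte and Bergmann glia genes had a median of 0.71 with none of 8 called, and their sum was higher in members of each library, at 1130, 1204, 1292 and 1999 CPM against 934, 894, 1047 and 1095 CPM. The microglia list summed to 14.1, 40.5, 5.55 and 183 CPM in members against 17.8, 23.1, 20.04 and 23.2 CPM, so that fresh 2 stood apart. The part of these cells was not tested.

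By size of the difference, the genes outside these families were Svep1, an extracellular matrix protein, at 87.4, 82.9, 93.3 and 127 CPM against 4.85, 5.63, 3.31 and 2.99 CPM, then Il16, Cnpy1, Chn2 and Afap1l2, with mean folds of 17.3, 16.6, 12.7 and 8.67. Il16 encodes a precursor with a neuronal isoform known from granule neurons, and Cnpy1 is a gene of the midbrain and hindbrain boundary. At the other end 3 genes over the level limit of the naming rule were lower with the gate at 4. Sntg2, a syntrophin, stood at 21.8, 35.4, 33.3 and 16.3 CPM in members against 73.5, 83.9, 76.0 and 83.4 CPM, and Samd5 at 56.6, 79.1, 56.6 and 78.3 CPM against 148, 183, 167 and 167 CPM. Kcnip1, a subunit that binds A-type channels, stood at 163, 179, 97.7 and 113 CPM against 362, 372, 218 and 261 CPM.

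**Figure D3:**
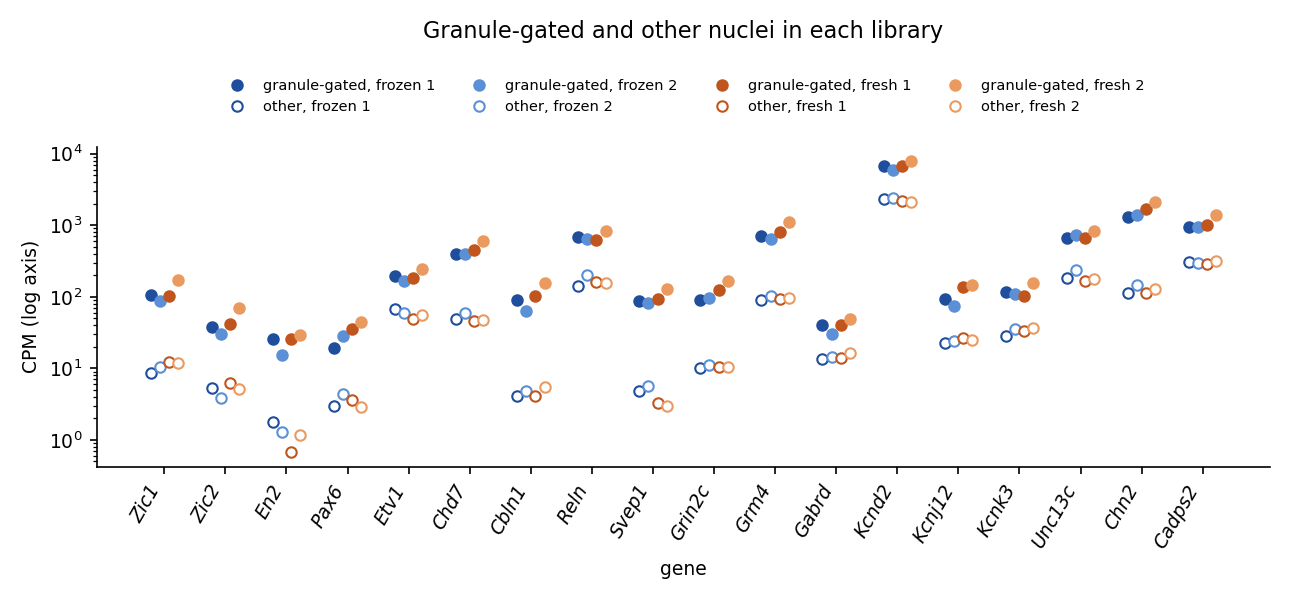
CPM on a log axis of 18 genes in the granule-gated nuclei (filled circles) and all other nuclei (open circles) of each of the 4 libraries without preindex. For each gene shown the filled circles lie above the open ones in every library, for example 105, 87.9, 101 and 169 CPM against 8.69, 10.3, 12.3 and 11.8 CPM for Zic1.

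Granule neurons of the dentate gyrus share the name but belong to the forebrain, and 119 nuclei outside the gate with at least 2 UFIs of Prox1 and 4 of Glis3 per 10000 were used for comparison (12, 21, 40 and 46 nuclei). Among genes that the dentate gate did not use, 4 of 4 tested genes of the dentate list (Dsp, C1ql2, Chst9 and Calb1) were lower in cerebellar members. A gene can pass the filter on low counts through the dentate-gated sums alone, so nothing is read from this count. Dsp and C1ql2 held 14 and 21 UFIs in members and 346 and 244 in dentate-gated nuclei. Of 7997 genes tested with edgeR, with the library as a block, 1185 (14.8%) were higher in granule-gated nuclei and 1149 (14.4%) lower at a Benjamini-Hochberg adjusted p of 0.05, and the median log2 fold change was 0.01. Grm4 stood at 697, 639.7, 808 and 1109 CPM in members and 41.3, 12.2, 12.8 and 23.7 CPM in dentate-gated nuclei, a log2 fold change of 5.42 ± 0.23 (SE, adjusted p = 3.03e-08). Syt2, a fast calcium sensor of release, held 1169 UFIs in members and 8 in dentate-gated nuclei, a ratio per UFI of 96.5 with a counting interval of 48.8 to 224 (adjusted p = 5.68e-08). Cbln1 had only 3 UFIs in dentate-gated nuclei against 466 in members, so the ratio of 102.6 has an interval of 34.9 to 499. Cnpy1 and Rab37 also had 3 dentate UFIs each, with ratios of 56.6 (19.1 to 276) and 92.9 (31.6 to 452). Svep1 and Gm2694 followed, with log2 fold changes of 6.11 ± 0.34 and 6.06 ± 0.32. They rest on 4 and 12 dentate UFIs, with ratios of 73.8 (28.6 to 272) and 67.8 (38.7 to 132). Then came Rnf152, Exph5 and Trim62, with log2 fold changes of 5.26, 5.24 and 5.23 on 10, 11 and 8 dentate UFIs. On the dentate side were Dsp, a desmosome protein and known dentate marker, at −5.15 ± 0.31 (adjusted p = 1.45e-07), Lct at −5.07, C1ql2 at −4.26, Stra6 at −4.24 and Npnt at −3.85. By the naming rule, members and dentate-gated nuclei differed in the same direction in 4 of 4 libraries for each of these genes.

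The families split by subunit. Of 12 GABA-A subunits tested 4 were higher in cerebellar members, Gabra3, Gabrg3 and Gabrd among them, and 6 lower, Gabra2, Gabra4, Gabra5 and Gabrb1 among them, with a median of −0.31. Gabrd was higher by 1.27 ± 0.29 (adjusted p = 0.00440) and Gabra5, a subunit of extrasynaptic receptors in the hippocampus, lower at −2.40 ± 0.19 (adjusted p = 1.14e-06), standing at 29.6, 39.9, 32.2 and 46.5 CPM in members and 255, 154, 176 and 192 CPM in dentate-gated nuclei. Of 16 ionotropic glutamate subunits 3 were higher, among them Grin2c (4.53 ± 0.37) and Gria4 (2.58 ± 0.16), and 8 were lower, among them Gria1 (−1.87 ± 0.14) and Grin2b (−1.43 ± 0.12). Of 42 potassium channel genes 16 were higher and 13 lower, with Kcnj12, an inward rectifier, at 3.66 ± 0.24, Kcnt1, a sodium-activated channel, at 3.10 ± 0.19 and Kcnk3, a leak channel, at 3.08 ± 0.22. Of 26 parallel fibre synapse genes 14 were higher and 4 lower, with a median of 0.68, and of 20 genes of migration and axon guidance 10 were higher and 6 lower. Cntn6, a contactin of parallel fibres, led the latter at 3.92 ± 0.16 (adjusted p = 3.03e-08). Of 23 granule identity genes 16 were higher and 4 lower (Neurod2, Slc17a7, Nfia and Tiam1), with a median of 2.63. Of 13 hindbrain and granule transcription factors 6 were higher and 4 lower, with a median of 0.39. Of 9 forebrain factors 3 were higher and 3 lower. Bcl11b, a zinc finger factor of cortical and striatal neurons, was lower at −2.29 ± 0.17 and Foxp1 higher at 0.51 ± 0.14. A gene can pass the filter on low counts through the sums of the class where it is high. Nothing is therefore read from the counts called in the identity and transcription factor lists. Markers of other cells were also among the calls, and for the same reason nothing is read from their counts. Interneuron genes were higher in 3 of 5 (Lgi2, Slc32a1 and Gad2), striatal genes in 2 of 3 (Pde10a at 1.30 and Drd2 at 3.52), oligodendrocyte genes in 2 of 6, Mobp among them, and Lhfpl3, the gene of oligodendrocyte precursors tested, at 1.60. None of 3 astrocyte genes was called. The part of these cells was not tested.

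Against other excitatory neurons, 909 nuclei outside both gates with at least 2 UFIs of Slc17a7 per 10000 were used (115, 136, 275 and 383 nuclei). Of 9402 genes tested in the same way, 1338 (14.2%) were higher in granule-gated nuclei and 1439 (15.3%) lower, with a median log2 fold change of 0.01. Zic1 stood at 6.10 CPM on average in Slc17a7-gated nuclei, and was higher in members by 4.48 ± 0.30 on the log2 scale (adjusted p = 1.54e-06). Nxn, a redox protein of Wnt signalling (chr11:76257226-76399141), stood at 136, 147, 189.9 and 205 CPM in members and 5.08, 8.42, 6.39 and 8.87 CPM in the comparison nuclei, a log2 fold change of 4.48 ± 0.15 (adjusted p = 4.61e-08). Zfp521, a zinc finger factor, stood at 503, 552, 556 and 789 CPM against 37.4, 32.9, 30.6 and 26.7 CPM, at 4.18 ± 0.17. Libraries of the 2 classes lay far apart for each of these genes. Cnpy1 (5.23 ± 0.33), Cbln1 (4.70 ± 0.20), Grin2c (4.47 ± 0.23), Unc5b (4.37 ± 0.22), a netrin receptor, Svep1 (4.30 ± 0.26), Afap1l2 (3.94 ± 0.20) and Meis1 (3.92 ± 0.23), a homeobox transcription factor, completed the genes with the largest folds. The genes furthest below were Igfn1 (−2.47 ± 0.41, adjusted p = 0.000917), Scube1 (−1.93 ± 0.18), Efcab6 (−1.89 ± 0.19), 9130024F11Rik (−1.88 ± 0.33) and Pdzrn3 (−1.83 ± 0.26).

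Of 23 granule identity genes tested 18 were higher and none lower, with a median of 2.42. Of 12 GABA-A subunits Gabrd was the one that was higher (1.57 ± 0.18, adjusted p = 6.27e-05), and 8 were lower, with a median of −0.48. Of 7 metabotropic receptors 2 were higher, among them Grm4 (3.62 ± 0.19), and 5 lower. Of 17 ionotropic subunits 5 were higher and 9 lower, with Grin2c highest as given above and Gria4 at 0.36 ± 0.12. The receptor genes thus moved in both directions within each family. Hindbrain factors were higher in 9 of 14 and lower in none (median 1.04), and forebrain factors were lower in 9 of 12 and higher in 2, Zbtb20 and Dlx6os1 (median −1.27). A gene can pass the filter on low counts through the sums of the class where it is high. Nothing is therefore read from the counts called in the granule identity, hindbrain and forebrain lists. Tbr1, a factor of deep-layer cortical neurons, was at −1.77 ± 0.20. Of 10 immediate early genes 5 passed the filter on low counts, which a gene can pass through the Slc17a7-gated sums alone. These were Arc, Egr1, Egr3, Fosl2 and Nr4a1, and each was lower. Arc stood at 2.57, 6.96, 5.55 and 5.43 CPM in members against 13.96, 12.6, 17.6 and 15.4 CPM (−1.54 ± 0.29, adjusted p = 0.00204). All 10 genes together summed to 50.1, 59.5, 66.6 and 63.6 CPM in members and 127, 112, 142 and 120.4 CPM in Slc17a7-gated nuclei.

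Markers of other cells moved with this comparison. Oligodendrocyte genes were higher in 6 of 7 with a median of 2.22, and their sum stood at 1094, 766, 563 and 1159 CPM in members and 159, 291, 249.6 and 185 CPM in Slc17a7-gated nuclei, with St18 the most abundant in members. Gad1 (2.21 ± 0.20), Gad2 and Slc32a1 were higher, and Sorcs3 lower, among 6 interneuron genes, and all 6 mitochondrial genes tested were higher with a median of 0.56. Astrocyte and Bergmann glia genes were higher in 4 of 5 (Slc1a3 at 2.31, Aqp4 at 2.13, Slc4a4 and Gja1) and lower in 1, the glutamate transporter Slc1a2 (−0.89). Their sum stood at 1130, 1204, 1292 and 1999 CPM in members and 1099, 917, 1149 and 1209 CPM in Slc17a7-gated nuclei. Striatal genes were higher in 3 of 4 (Drd2 at 1.97, Rgs9 at 0.87 and Pde10a at 0.38), and so was Flt1, at 2.54. Flt1 was the 1 gene tested of 6 in the vascular list. It had a UFI in 6.57% of members and 8.39% of all nuclei outside the gate. Genes of these marker lists can pass the filter on low counts through the member sums alone, so nothing is read from the counts called. A gate on Slc17a7 selects against inhibitory and glial nuclei, and the part of these cells in the calls was not tested.

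**Figure D4:**
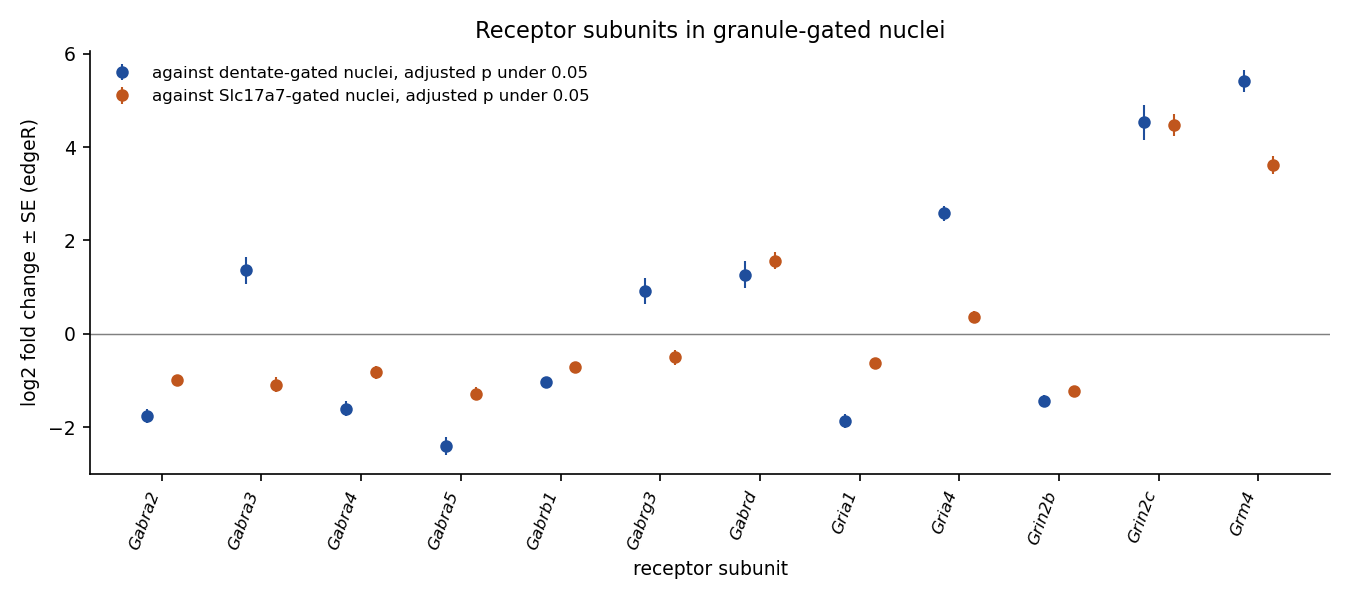
Log2 fold change (edgeR, bars are SE) of 12 GABA-A and glutamate receptor genes in granule-gated nuclei against dentate-gated (blue) and Slc17a7-gated nuclei (orange), each with an adjusted p under 0.05. Grm4 and Grin2c stand above the other genes shown in both comparisons, at 5.42 and 4.53 and at 3.62 and 4.47, and Gabra5 lies at −2.40 and −1.28.

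Storage was compared within granule-gated nuclei, with 2 frozen against 2 fresh libraries. Of 8661 genes tested with edgeR 9 (0.104%) were higher in frozen libraries and 0 (0.0%) lower, with 671 genes at an unadjusted p under 0.05, and DESeq2 called 21 higher and 1 lower. Of the 9, 5 are encoded by the mitochondrial genome. The ribosomal RNA gene mt-Rnr1 stood at 11144 and 9116 CPM in the frozen and 2344 and 3536 CPM in the fresh libraries, a log2 fold change of 1.82 ± 0.22 (adjusted p = 0.0407). The complex I gene mt-Nd1 stood at 406 and 328 CPM against 95.5 and 112 CPM, at 1.84 ± 0.19 (adjusted p = 0.0186). Frozen and fresh libraries did not overlap for either gene, which the naming rule asked for and which was so in 3265 of the 8661 genes. Genes mt-Rnr2, mt-Nd2 and mt-Cytb were at 1.77, 1.67 and 1.49. The other nuclei of the same libraries stood in the same order, with mt-Nd1 at 229 and 201 CPM frozen and 68.4 and 72.1 CPM fresh. Reads of mt-Rnr1 and mt-Rnr2 can be shared with nuclear copies of the mitochondrial genome, so their levels are uncertain.

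The other 4 genes were Gm12239, Gad2, Slc6a11 and Spock3. Gad2, which makes GABA, stood at 81.0 and 86.7 CPM in frozen and 20 and 27.9 CPM in fresh granule-gated nuclei (1.82 ± 0.23, adjusted p = 0.0407), while in the other nuclei of these libraries it stood at 89.8, 123, 103 and 101 CPM. With the gate at 20 the same gene stood at 0, 11.3, 19.5 and 10.4 CPM. Slc6a11, a GABA transporter of astrocytes, stood at 82.3, 81.6, 26.7 and 26.4 CPM (1.66 ± 0.22) and with the gate at 20 at 391, 11.3, 0 and 20.8 CPM. The frozen and fresh values of both genes are apart at the gate of 4 and not at the gate of 20. Spock3, a matrix proteoglycan, was at 279, 333, 131 and 137 CPM (1.23 ± 0.17, adjusted p = 0.0434). With the gate at 20 Spock3 stood at 9.79, 50.9, 29.3 and 22.8 CPM, and its frozen and fresh values overlapped. Gm12239 stood at 66.8, 53.1, 7.77 and 6.98 CPM (3.03 ± 0.32, adjusted p = 0.0186). With the gate at 20 Gm12239 stood at 186, 5.65, 0 and 4.15 CPM, high in frozen 1 alone.

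None of 24 granule identity genes was called by storage, and since 0.104% of all genes were, nothing is read from that count. Their median was −0.38 beside −0.01 over all genes, and 3 of 6 mitochondrial protein genes and 1 of 8 interneuron genes, Gad2, made up all calls among the lists. Marker lists of other cells had medians away from that of all genes too, at 1.01 for interneurons, 0.91 for striatal neurons, 0.86 for unipolar brush cells, 0.62 for oligodendrocyte precursors and −0.79 for astrocytes and Bergmann glia, over 8, 5, 3, 3 and 5 genes tested, and the part of these cells in the storage values was not tested. The summed mitochondrial protein genes stood at 3015 and 2637 CPM in frozen and 662 and 1058 CPM in fresh members. The frozen 1 members also held 276 CPM of the choroid plexus list, against 9.49, 3.33 and 15.5 CPM in the other libraries, almost all of it Ttr, of which 1 member nucleus had at least 20 UFIs. Without frozen library 1 no gene was called (294 at an unadjusted p under 0.05), and without fresh library 1 or 2 edgeR called 609 and 235 genes. With the gate at 20, 5 genes were called, of which mt-Nd1 (1.90), mt-Rnr1 (1.82) and mt-Rnr2 (1.78) were among the 9.

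**Figure D5:**
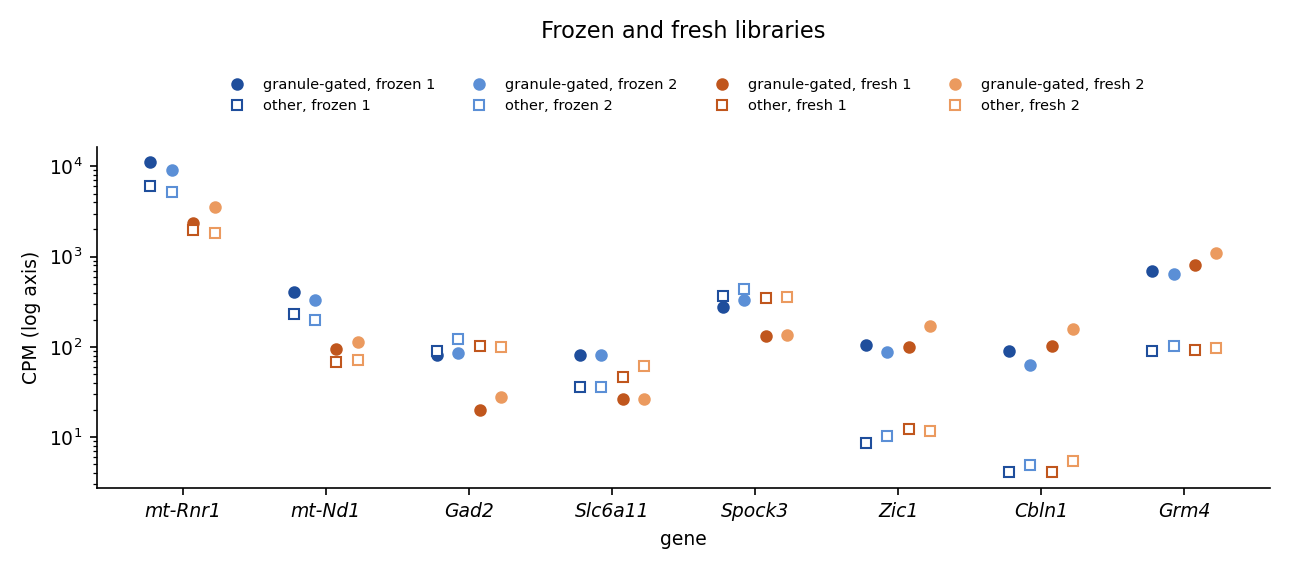
CPM on a log axis of 8 genes in granule-gated (filled circles) and other nuclei (open squares) of the 2 frozen (blue) and 2 fresh (orange) libraries without preindex. Frozen values of mt-Rnr1 and mt-Nd1 lie above fresh ones in both classes, Gad2 differs by storage in granule-gated nuclei (81.0 and 86.7 against 20 and 27.9 CPM) but stands between 89.8 and 123 CPM in the others, and Zic1, Cbln1 and Grm4 were not called.

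Whether the storage difference in granule-gated nuclei was another than in the rest was tested as an interaction of class and storage. Of 13525 genes 7 (0.0518%) had a higher ratio of frozen to fresh in members than in the rest and 6 (0.0444%) a lower one, with 838 at an unadjusted p under 0.05. None of the mitochondrial genes was among them. The count was larger with any library left out, at 79 and 42 genes without frozen library 1 and 2 and 431 and 161 without fresh library 1 and 2, and 12 of the 13 genes were called without frozen library 1 and all 13 without each of the others. Gad2, Slc6a11 and Gm12239 were among those with the higher ratio in members, and the interaction of Gad2 turned to −1.13 with the gate at 20. Another was Kcnmb2, a subunit of calcium-activated potassium channels, which stood at 90.0, 177, 25.5 and 31.8 CPM in members and 115, 161, 143 and 140.4 CPM in the rest. In the other direction was Airn, a noncoding RNA that overlaps Igf2r on the opposite strand. It stood at 238, 196, 288 and 296 CPM in members and 58.5, 48.8, 30.8 and 32.7 CPM in the rest (interaction −1.21, adjusted p = 0.0210). Marker lists of other cells had interaction medians away from the 0.01 over all genes. These were −1.51 for Purkinje cells, −1.43 for microglia and −0.91 for astrocytes and Bergmann glia, over 10, 5 and 8 genes tested. Oligodendrocyte precursors were at 0.72 and interneurons at 0.63, over 4 and 10 genes. The Purkinje list in the rest also differed by storage, at 1737, 1447, 872 and 952 CPM. The part of these cells was not tested.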

How the data were processed

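Brain nuclei were profiled by snHH-seq, and the 4 libraries without preindex were used, with the 3 preindexed ones for the share of gated nuclei. The deposited values are raw UFI counts per gene and nucleus: the authors trimmed reads with Cutadapt, chose barcodes with UMI-tools and a manual cutoff, aligned with STAR, assigned uniquely mapped reads to genes with featureCounts and counted UFIs. The submitters' processing notes list GRCm38 and mm10 among the builds. The study describes UFI quantification as specific for strand, and the strand setting of featureCounts is not given in the sources used here, so overlapping genes on opposite strands, Airn and Igf2r among them, are uncertain if counting did not use strand. The species-mix files were not used. Totals of 8605214 to 42439731 UFIs per library set the precision, and the granule-gated sums held 4548885 UFIs.

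The members, lists and tests were chosen with earlier results of these data known. All nuclei in the files were kept, and doublets were not removed. Counts were summed per library and class. Tests used edgeR 4.0.16 in R 4.3.3 (glmQLFit and glmQLFTest, TMM scaling, filterByExpr, Benjamini-Hochberg adjustment over all genes tested, threshold 0.05), with the library as a block where both sums came from the same library. The genes of either gate were left out of the calls. Comparison nuclei needed at least 3 UFIs of each gate gene, and dentate-gated nuclei fewer than 4 UFIs per 10000 of Slc34a1, Lrp2 and Pkhd1. Exact permutation tests were two-sided (scipy 1.17.1). The scripts were tested on simulated data with known fold changes. Named genes were the label markers, for each comparison as many as 10 called genes that were higher and 5 that were lower, by size of log2 fold change, with at least 50 CPM on average in the higher class and no overlap of classes over libraries (the same direction in 4 of 4 libraries within a library), and examples from the lists. Other genes given among the levels or in the interaction were chosen after their values were seen. Alternatives were DESeq2 1.42.0, scaling by the upper quartile, all genes with a count of at least 1, gates at 8 or with at least 5 rule UFIs, other pseudocounts, folds and depths, leaving out each library, and the replicate number as a block. A gate at 20 was added after the data had been seen. RefSeq gave gene positions on GRCm38.p6 for 47 of 52 named genes matched by symbol. Some genes of the lists are counted but not reported by name here.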

Additional observations from a re-analysis of the deposited data

Results flagged for a closer look

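A test of the difference between classes flagged 9 named genes: their frozen over fresh change in granule-gated nuclei was another than in the other nuclei of the same libraries (interaction of class and storage, edgeR, Benjamini-Hochberg adjusted p under 0.05). In 4 genes the ratio of frozen to fresh was higher in granule-gated nuclei than in the rest, by 2.58 on the log2 scale for Gm12239 (adjusted p = 0.0141), 2.20 for Kcnmb2 (adjusted p = 0.00401), 2.20 for Slc6a11 (adjusted p = 0.00401) and 1.68 for Gad2 (adjusted p = 0.0302). With the gate at 20 the interaction of Gad2 turned to −1.13, and of the other genes of the 9, 4 kept their call and 4 lost it. With at least 5 rule UFIs asked of members, 6 of the 9 kept their call and 3 lost it. In 5 of the 9 genes the ratio was lower in granule-gated nuclei, and by group means each of the 5 was lower in frozen than in fresh granule-gated nuclei and higher in frozen than in fresh other nuclei. Gm38048 had an interaction of −5.35 (adjusted p = 0.000558) and stood at 2.57, 3.16, 25.5 and 17.8 CPM in granule-gated nuclei against 90.1, 55.0, 11.3 and 12.2 CPM in the rest. Its frozen values in granule-gated nuclei rest on few UFIs, and with the gate at 20 it stood at 0, 0, 4.88 and 2.08 CPM. Hpcal1, a neuronal calcium sensor, had −1.74 (adjusted p = 0.00719), with 69.4, 67.7, 100 and 135 CPM against 74.9, 64.8, 35.4 and 36.7 CPM. Myo10, an unconventional myosin, had −1.69 (adjusted p = 0.0355), Ebf1, a helix-loop-helix factor that varies among granule neurons by lobule, −1.27 (adjusted p = 0.0395) and Airn −1.21 (adjusted p = 0.0210). For Ebf1 the frozen and fresh libraries overlapped in granule-gated nuclei, at 190.2, 190.5, 252 and 185 CPM. Of the granule-gated nuclei, 14.3% and 15.5% stood at 20 rule UFIs per 10000 or over in the frozen libraries and 32.5% and 38.9% in the fresh ones. Marker lists of other cells moved with the interaction too, with medians of −1.51 for Purkinje cells, −1.43 for microglia and −0.91 for astrocytes and Bergmann glia. The part of either in the interaction was not tested.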

How the results depend on the processing

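The direction of the share, depth and gene-number differences held under every alternative run. As each library was left out, the frozen excess in share lay between 6.92 and 8.80 points. The UFI difference then lay between −4495 and −2681 and the gene difference between 30.7 and 42.3. Depth is the denominator of the rule, so nothing is read from the direction of the UFI difference. Against other nuclei, 248 genes passed the fold rule, 131 with a pseudocount of 10 CPM, 49 at 4-fold, 282 to 391 with a library left out, 791 with the gate at 8, of which 393 higher and 398 lower, and 2075 with the gate at 20, where 456 were higher and 1619 lower and 218 of the 248 were shared. Dentate calls ranged from 1820 to 2648 (2334 in the fit reported, 2355 with no replicate block) and Slc17a7 calls from 1976 to 3321 (2777 reported, 2969 with no replicate block), and all 165 alternative values of the named genes in each comparison kept direction and call.

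Counts by storage were less stable. In place of 9, DESeq2 called 22, scaling by the upper quartile 14, the absence of a filter 139, the gate at 8 gave 42, at least 5 rule UFIs 15 and the gate at 20 gave 5, and with a library left out edgeR called 0 to 609. Without frozen replicate 1 there were 0 calls and 294 genes at an unadjusted p under 0.05, and without fresh replicate 1 or 2 there were 609 and 235. Leaving out a library leaves 1 in its group, which is assumed to vary like the others. Of the alternative values of the 9 genes, 78 kept their call and 17 lost it. In place of 13, the interaction gave 127 without the filter, 74 with the gate at 8, 8 with at least 5 rule UFIs and 42 to 431 with a library left out. The interaction of Gad2 reversed to −1.13 with the gate at 20, while 81 of the values of the 9 named interaction genes kept their call and 8 lost it. The cause was not tested. With the replicate number as a block 94 genes were called by storage, 82 higher and 12 lower, including all 9 and all 6 mitochondrial protein genes tested, but the numbers do not pair the libraries: deviations of same-numbered libraries correlated at −0.048 over 7958 genes. With 40 to 103 gated nuclei per library, low genes rest on few UFIs.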

Other observations

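In the 3 preindexed libraries, summed over all nuclei, Cbln1, En2 and Zic1 stood lower than in the nuclei below the gate of each library without preindex. These 3 genes are examples. The granule identity list as a whole is not given for these libraries. In the order frozen 1, frozen 2 and fresh 1, Cbln1 stood at 1.90, 1.57 and 1.65 CPM, En2 at 0.0761, 0.0315 and 0.187 CPM and Zic1 at 5.82, 7.17 and 5.67 CPM. Cadps2, a label marker that other neurons also express, was not low, at 330.5, 316 and 274 CPM. Among the other genes with the largest folds over other nuclei, Il16, Cnpy1, Gm2694 and Grin2c also stood below those nuclei. Svep1, Chd7, Chn2 and Afap1l2 overlapped them. Chn2 stood at 131, 123 and 98.5 CPM, against 113, 145, 112 and 130 CPM below the gate without preindex.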
